A study of Mus musculus with 12 samples.

Results

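Adhesion and junction genes of the developing mouse eye were followed across wild-type (WT) and Bmp4-deleted (KO) embryos: the cadherins and protocadherins, claudins, nectins, gap junction connexins, and the junction genes Tjp, Ocln and F11r. Members were taken by gene symbol. A gene counted if at least 1 of its array probes had a detection p below 0.05 on at least 3 of the 12 arrays, and it was read from the probe with the highest mean intensity. Of 132 genes on the array with such a name, 73 passed, out of 11924 genes tested. They comprise 4 type I cadherins, 10 type II and other cadherins, 7 protocadherins outside the clusters, 25 clustered protocadherins, 14 claudins, the 4 genes Tjp1, Tjp3, Ocln and F11r, 3 nectins and 6 connexins.

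Cells of an epithelium are held together by several kinds of junction. Cadherins span the gap between neighbouring cells in adherens junctions, bind preferentially to cadherins of their own kind and are anchored inside by catenins. Nectins help to start such contacts, claudins with occludin seal the space between cells in tight junctions, and connexins form the channels of gap junctions. In the early eye the prospective retina and the prospective lens are epithelia in close contact, and a switch of epithelium from E-cadherin to N-cadherin is a known step of lens and neural plate formation.

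The groups were distal optic vesicle (the future retina) of KO and of WT embryos and the ectoderm lying over it (the future lens) of KO and of WT embryos, with 3 arrays each. All embryos were at E10.5 and of a mixed C57BL6 and FVB background. Tissue was cut from frozen sections by laser, and 15 ng of RNA was amplified before hybridisation to Illumina bead arrays. The KO carries a deletion of Bmp4, a growth factor of the optic vesicle; the labels name neither the Cre line nor the deleted exons. The submitters name 3 embryos of each genotype but also pooling, so it is unsettled whether a group holds 3 embryos or 1 pool measured 3 times, and the p-values may measure technical spread only. Values below are normalised log2 intensities; levels of different probes are not comparable with each other. In dissected tissue, fewer cells of a type and less RNA per cell cannot be told apart.

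On the arrays 45.0% to 46.7% of probes were detected, and the correlation across genes between arrays of a group lay between 0.928 (KO ectoderm) and 0.963 (WT vesicle). The Bmp4 probe gave 4.59 ± 0.51 in KO and 8.26 ± 0.04 in WT optic vesicle (SD, n = 3 each), a log2 difference of -3.67 with adjusted p = 0.000103, and was detected on 1 of 3 KO arrays. In the ectoderm it gave 4.92 ± 0.64 in KO and 6.02 ± 0.11 in WT (adjusted p = 0.141). Whether this probe lies in the deleted part is not stated. The tissue labels were checked on markers: Rax and Lhx2 were detected on all 6 vesicle arrays, and Tfap2a, Epcam and Esrp1 on all 6 ectoderm arrays. Detection alone did not separate the tissues, since Epcam was also detected on all 6 vesicle arrays, Esrp1 on 5 of them, Rax on 5 of the 6 ectoderm arrays and Lhx2 on 4. The levels of Lhx2 and Epcam did. Lhx2 gave 8.93 in KO vesicle against 6.25 in KO ectoderm and 8.46 in WT vesicle against 4.83 in WT ectoderm. Epcam gave 5.33 in KO vesicle against 8.94 in KO ectoderm and 5.50 in WT vesicle against 9.24 in WT ectoderm. Not every marker separated the tissues. Of 5 measured optic vesicle neural markers, 3 passed as higher in vesicle in each genotype and 2 did not pass. The difference was positive for 3 of the 5 in WT and 4 in KO. Of 12 surface ectoderm and lens markers, 10 passed as lower in WT vesicle and 9 in KO vesicle. Six6 and Hes5 had no probe that passed the filter.

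Only 15 of the 73 genes were detected on all 12 arrays. On all 3 arrays of their group, 25 genes were detected in KO vesicle, 23 in WT vesicle, 36 in KO ectoderm and 32 in WT ectoderm. In the same order 21, 22, 6 and 9 genes were detected on none, so more of the family was measurable in the ectoderm. At the edge of the filter, Cldn1, Cldn2, Pcdhb12, Pcdhb20, Pcdhgb7, Pcdhgb8, Tjp3, Cdh10 and Cdh13 were detected on exactly 3 arrays, with median intensities of 4.36 (Cdh10) to 4.65 (Pcdhb20). Just outside it, detected on 2 arrays, were Pcdha10, Pcdhb21, Pcdhga6, Pcdhgc4, Gja6, Pcdh15, Pcdh19 and Pcdh20, with medians of 4.35 (Pcdhb21) to 4.56 (Pcdh20). Their medians lie near the background of the arrays, but single arrays can stand above it, as for Pcdhgb8 (highest value 6.14) and Cldn2 (6.57).

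**Figure D1:**
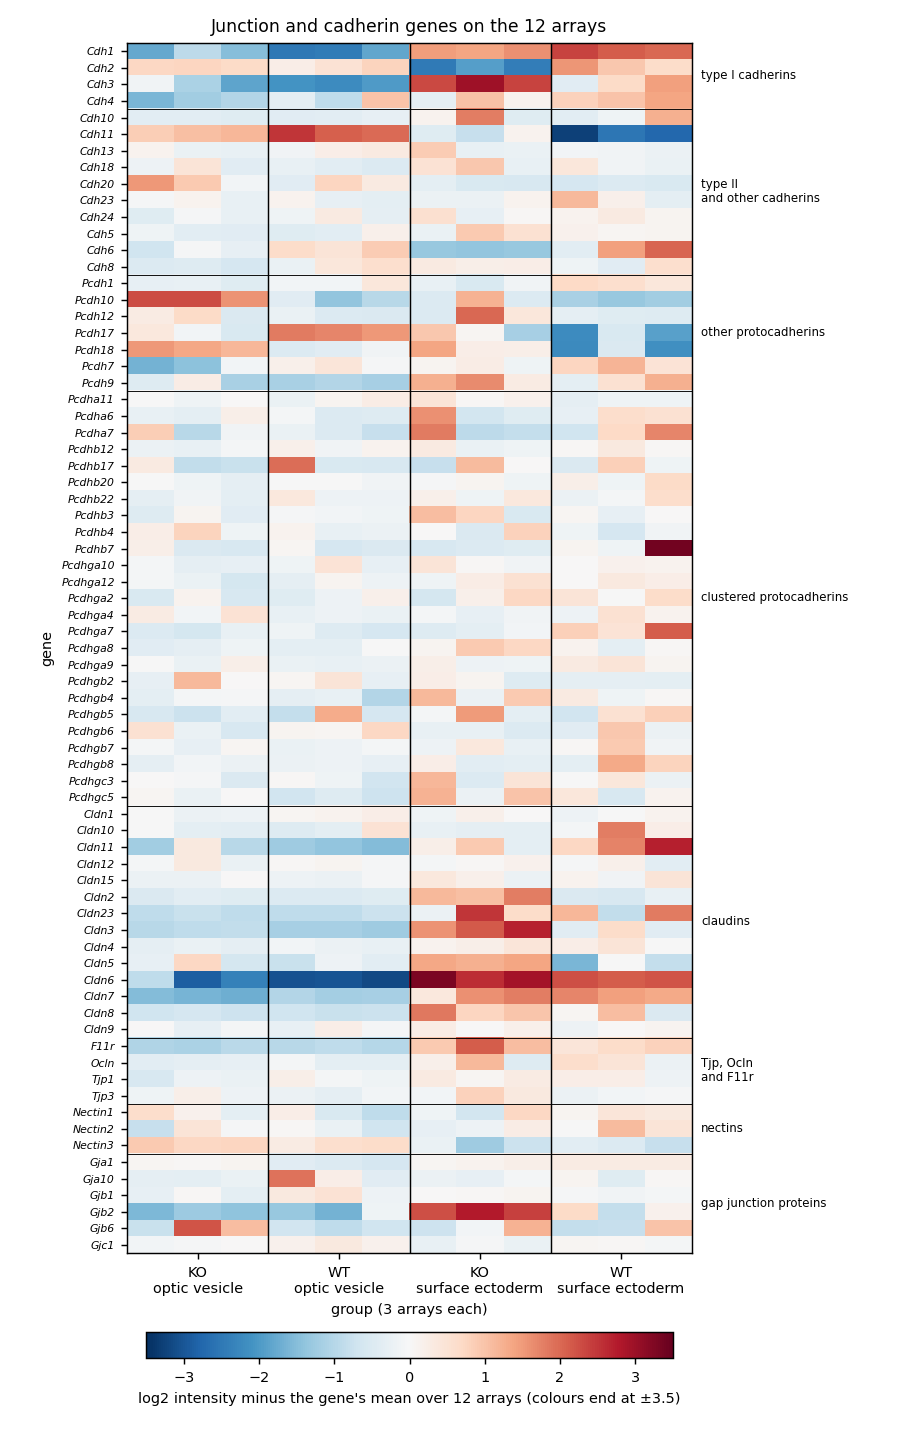
Intensity of the 73 genes (rows, by role) on the 12 arrays (columns, 3 per group), as log2 minus the gene's own mean over all arrays; red is above and blue below that mean, and colours end at ±3.5. Cdh1, Cldn6 and Cldn7 are red on the ectoderm arrays and blue on the vesicle arrays, Cdh11 runs the other way in WT, and Cdh2 is blue on the 3 KO ectoderm arrays.

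KO was set against WT within each tissue to find which junction genes follow the loss of Bmp4. In the optic vesicle 2 of the 73 genes passed (adjusted p below 0.05, limma), Gja1 and Pcdh10, both higher in KO; of all genes 1.84% passed in either direction and 1.07% were higher in KO. In the ectoderm 10 of 73 passed, where 4.95% of all genes did. Those higher in KO were 7: the cadherins Cdh3 and Cdh11, the protocadherin Pcdh18, the claudins Cldn2, Cldn3 and Cldn5 and the connexin Gjb2. The 3 lower in KO were Cdh2, Cdh6 and Pcdhga7. Of all genes 2.55% were higher and 2.4% lower. None passed in both tissues, which does not by itself show a difference between them; that difference was tested separately and is given further on. The median log2 difference of the 73 genes was -0.01 in the vesicle and 0.04 in the ectoderm, against -0.02 and 0.02 over all genes tested. The KO and WT values did not overlap for 22 of the 73 genes in the vesicle and for 21 in the ectoderm, which holds for 21.2% and 19.2% of all genes. The shares of all genes that passed are the background for the counts by class and list given below.

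The RefSeq table of mouse promoters (build GRCm38.p6) lists 34 of the 73 genes. The 250 bases before the listed start are printed for 4 genes whose level changed with genotype: Gjb2 and Cldn3 (higher in KO ectoderm), Cdh6 (lower in KO ectoderm) and Pcdh10 (higher in KO vesicle). They were searched on both strands for motifs of factors known to act on junction genes or in BMP signalling, and matches stand in capitals.
Gjb2: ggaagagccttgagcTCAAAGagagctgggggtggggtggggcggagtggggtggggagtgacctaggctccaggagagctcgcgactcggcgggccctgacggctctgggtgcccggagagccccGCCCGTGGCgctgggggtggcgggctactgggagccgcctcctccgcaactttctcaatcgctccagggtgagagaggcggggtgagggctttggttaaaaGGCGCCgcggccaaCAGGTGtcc
Cldn3: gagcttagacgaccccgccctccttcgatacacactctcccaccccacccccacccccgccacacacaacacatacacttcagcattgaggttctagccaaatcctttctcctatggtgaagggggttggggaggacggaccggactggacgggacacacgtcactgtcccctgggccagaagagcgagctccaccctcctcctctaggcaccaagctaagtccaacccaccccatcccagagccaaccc
Cdh6: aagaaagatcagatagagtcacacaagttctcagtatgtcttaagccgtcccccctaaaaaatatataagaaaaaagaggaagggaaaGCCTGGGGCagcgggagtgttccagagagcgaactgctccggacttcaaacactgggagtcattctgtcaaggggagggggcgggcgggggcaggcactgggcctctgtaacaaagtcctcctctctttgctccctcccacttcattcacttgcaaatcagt
Pcdh10: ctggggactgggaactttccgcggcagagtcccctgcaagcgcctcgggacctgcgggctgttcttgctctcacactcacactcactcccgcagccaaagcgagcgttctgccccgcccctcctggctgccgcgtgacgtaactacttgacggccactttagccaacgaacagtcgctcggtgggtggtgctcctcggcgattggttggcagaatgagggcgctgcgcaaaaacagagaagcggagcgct
The Gjb2 window is chr14:57104703-57104952 on the minus strand, the Cldn3 window chr5:134985964-134986213 on the plus strand, the Cdh6 window chr15:13173676-13173925 on the minus strand and the Pcdh10 window chr3:45378148-45378397 on the plus strand. The motifs were CACCTG, bound by Snail and Zeb repressors (in 17.2% of 32851 listed promoters), GCCNNNGGC, bound by Tfap2 factors (13.7%), AACCGGTT, bound by Grainyhead-like factors (0.116%), GGCGCC, a GC-rich element bound by BMP-activated Smads (9.59%), and CTTTGA, a core read by TCF and LEF (13.8%). The GCCNNNGGC and GGCGCC matches can share bases, but no matches overlapped in these windows. The Gjb2 window held CTTTGA 235 bases before the start, GCCNNNGGC at 124, GGCGCC at 23 and CACCTG at 9. The Cdh6 window held GCCNNNGGC at 162 bases, and those of Cldn3 and Pcdh10 held none of the 5. CG dinucleotides numbered 18 in the Gjb2 window, 9 in Cldn3, 6 in Cdh6 and 22 in Pcdh10. The windows of Cldn2, Cldn5, Gja1 and Pcdh18, which also changed with genotype and are not printed, held none either. Cdh1, Cdh2, Cdh3, Cdh11 and Pcdhga7 have no entry, so their promoters were not searched.

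Among the type I cadherins, which carry the strong adhesion of adherens junctions, 2 of 4 passed in the ectoderm, in opposite directions. Cdh2 (N-cadherin, the cadherin of neural epithelium and of lens cells) was low on every KO ectoderm array, at 4.45, 5.01 and 4.53, against 8.50, 7.90 and 7.59 in WT ectoderm. The groups lie far apart, and in KO the probe was detected on 1 array only. The difference of -3.33 (SE 0.34) is a 10.1-fold lower intensity in KO, with adjusted p = 4.9e-05. Most KO values lie at background, so the size of this fold is not exact. In the vesicle the same probe gave 7.66, 7.69 and 7.61 in KO and 7.18, 7.43 and 7.73 in WT, which overlap (adjusted p = 0.9). All 3 KO ectoderm arrays lay below every vesicle array, while the WT ectoderm arrays overlapped the vesicle range.

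Cdh3 (P-cadherin, found in basal layers of surface epithelia and in pigment epithelium) gave 8.75, 9.38 and 8.80 in KO ectoderm, against 6.02, 7.11 and 7.86 in WT ectoderm. All KO arrays lay above all WT arrays, by 1.98 (SE 0.51, 3.95-fold, adjusted p = 0.0378). The WT arrays spread widely, and the call was lost in 5 of the 6 fits that left out 1 ectoderm array, with adjusted p of 0.0631, 0.111 and 0.0705 without KO replicate 1, 2 or 3 and of 0.144 and 0.0784 without WT replicate 1 or 2. With the replicate number as a block adjusted p was 0.0649. In the vesicle this Cdh3 probe was detected on 2 KO arrays (6.30, 5.31 and 4.57) and on no WT array (4.34, 4.24 and 4.44), a difference that did not pass. The other kept Cdh3 probes were detected on no vesicle array and gave KO minus WT differences of -0.02, -0.03 and 0.09 there. Detection of Cdh3 in KO vesicle therefore rests on a single probe.

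Cdh1 (E-cadherin), the direct neighbour of Cdh3 in the RefSeq gene order, did not pass in either tissue. In KO ectoderm it gave 11.80, 11.72 and 11.96, against 12.72, 12.47 and 12.36 in WT ectoderm, groups that do not overlap (log2 difference -0.70, adjusted p = 0.0833). In the vesicle it gave 8.55, 9.42 and 8.85 in KO and 7.84, 7.90 and 8.54 in WT (difference 0.85, adjusted p = 0.0653). Beside this, the summed linear intensity of 12 surface ectoderm and lens markers, Cdh1 not among them, ran from 709.7 to 1030 in KO vesicle and from 454.8 to 754.1 in WT vesicle. Of the 12, 1 passed between the vesicle groups, as higher in KO, and 9 differences were positive. On no array of their group 3 were detected in KO and 8 in WT vesicle, so the sums hold background too. The part of ectoderm cells in the vesicle values was not tested. Cdh4 (R-cadherin, a retinal cadherin) was detected on all arrays and gave differences of -1.19 in the vesicle and -0.80 in the ectoderm, neither of which passed.

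Of the 10 type II and other cadherins, whose members mark subdivisions of neural tissue, mesenchyme and vessels, 1 was higher and 1 lower in KO ectoderm. Cdh11 (a cadherin of mesenchyme and of parts of the neural tube) gave 7.45, 7.06 and 8.01 in KO ectoderm, against 4.61, 5.35 and 5.13 in WT ectoderm. Every KO array stood above every WT array by more than 1 unit, and the difference was 2.48 (SE 0.30, 5.57-fold, adjusted p = 0.000167). In the vesicle the order was turned: 8.74, 8.94 and 9.04 in KO, against 10.38, 9.97 and 9.85 in WT. That difference of -1.16 did not pass (adjusted p = 0.0724), although the groups do not overlap.

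Cdh6 (K-cadherin, expressed in the neural folds and their borders) was below detection throughout KO ectoderm, at 4.55, 4.50 and 4.56, and gave 5.52, 7.32 and 7.92 in WT ectoderm. It was at least 4.47-fold lower in KO, with an adjusted p of 0.0129. "At least" is used for folds where a probe was not detected on any array of a group, and sets the brighter group against the lowest detected signal. Log2 differences of such probes are given as fitted, with 1 side at background, so their size is not exact. In the vesicle Cdh6 gave 5.54 ± 0.33 in KO and 6.54 ± 0.21 in WT, which did not pass. The other 8 genes of this class passed nowhere, and their KO differences in the ectoderm ran from -0.42 (Cdh23) to 0.38 (Cdh18). The brightest were Cdh8, Cdh20, Cdh5 and Cdh24. Cdh5 (VE-cadherin, of endothelium), next to Cdh11 in the gene order, gave 5.31 ± 0.59 in KO and 5.01 ± 0.03 in WT ectoderm.

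Outside the clusters, 2 of the 7 protocadherins passed between genotypes, 1 in each tissue. Protocadherins of this class bind weakly and are known for cell sorting and axon guidance. Pcdh10 (OL-protocadherin) gave 7.90, 7.90 and 7.20 in KO vesicle, against 5.24, 4.24 and 4.67 in WT vesicle, where it was detected on 1 array. No array of the groups overlaps, and KO was 7.72-fold higher (log2 difference 2.95, SE 0.46, adjusted p = 0.00239). Most WT values lie at background, so the size of this fold is not exact either. In the ectoderm it was detected on all KO arrays (5.15, 6.85 and 5.16) and on no WT array (4.50, 4.29 and 4.42), but the difference of 1.32 did not pass (adjusted p = 0.126).

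Pcdh18 gave 9.44, 8.30 and 8.27 in KO ectoderm, against 5.85, 7.56 and 5.94 in WT ectoderm, a difference of 2.22 (SE 0.42, 4.66-fold, adjusted p = 0.00589). Its vesicle values were also apart, at 9.58, 9.43 and 9.22 in KO and 7.59, 7.68 and 7.95 in WT, yet that difference of 1.68 did not pass (adjusted p = 0.0619). Pcdh17 passed in neither tissue: 7.59, 7.12 and 6.69 in KO vesicle stood below 9.03, 8.93 and 8.74 in WT vesicle (difference -1.77, adjusted p = 0.124). In the ectoderm 8.16, 7.27 and 6.06 in KO overlapped 5.00, 6.68 and 5.30 in WT (difference 1.50, adjusted p = 0.124). Pcdh7, Pcdh9, Pcdh1 and Pcdh12 passed in no comparison. Pcdh1 came close in the ectoderm, at 4.66 ± 0.21 in KO and 5.53 ± 0.15 in WT (adjusted p = 0.052).

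Vesicle counts depended on the fit: the 2 calls became 5 without background correction, 4 with cyclic loess, 5 with the 6 vesicle arrays alone and 6 with array weights. The genes added were Cdh11 and Pcdh17 (lower in KO) and Pcdh18 and Cdh1 (higher in KO), each named above. Gja1 and Pcdh10 passed in each of these fits.

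Of the clustered protocadherins, which give neurons their individual surface identity, 1 of 25 passed between genotypes and 24 did not. The call was in the ectoderm, where 4.95% of all genes passed, so the count is near that share. In the ectoderm the 24 differed by -1.59 (Pcdhb7) to 0.68 (Pcdhgc5), and the Pcdhb7 value rests on 1 bright WT array. The gene that passed was Pcdhga7, at 4.59, 4.70 and 4.94 in KO ectoderm, against 5.89, 5.53 and 7.17 in WT ectoderm (difference -1.45, adjusted p = 0.0292). It was detected on 1 KO and 3 WT arrays, and the call was lost without KO replicate 1 (adjusted p = 0.0798), without KO replicate 2 (0.0731), without background correction (0.0597, difference -0.58), without the detection filter (0.0613), with array weights (0.0684), with the 6 ectoderm arrays alone (0.183) and within slide 1 (0.381). The brightest members that passed nowhere were Pcdhga12, Pcdhgc3, Pcdhgb4 and Pcdhgc5; Pcdhga12 gave 8.03 ± 0.34 in KO and 8.02 ± 0.16 in WT ectoderm. Genes of the alpha and of the gamma cluster share their last exons, and the beta genes are similar in sequence, so a probe may read more than the gene it is named for.

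**Figure D2:**
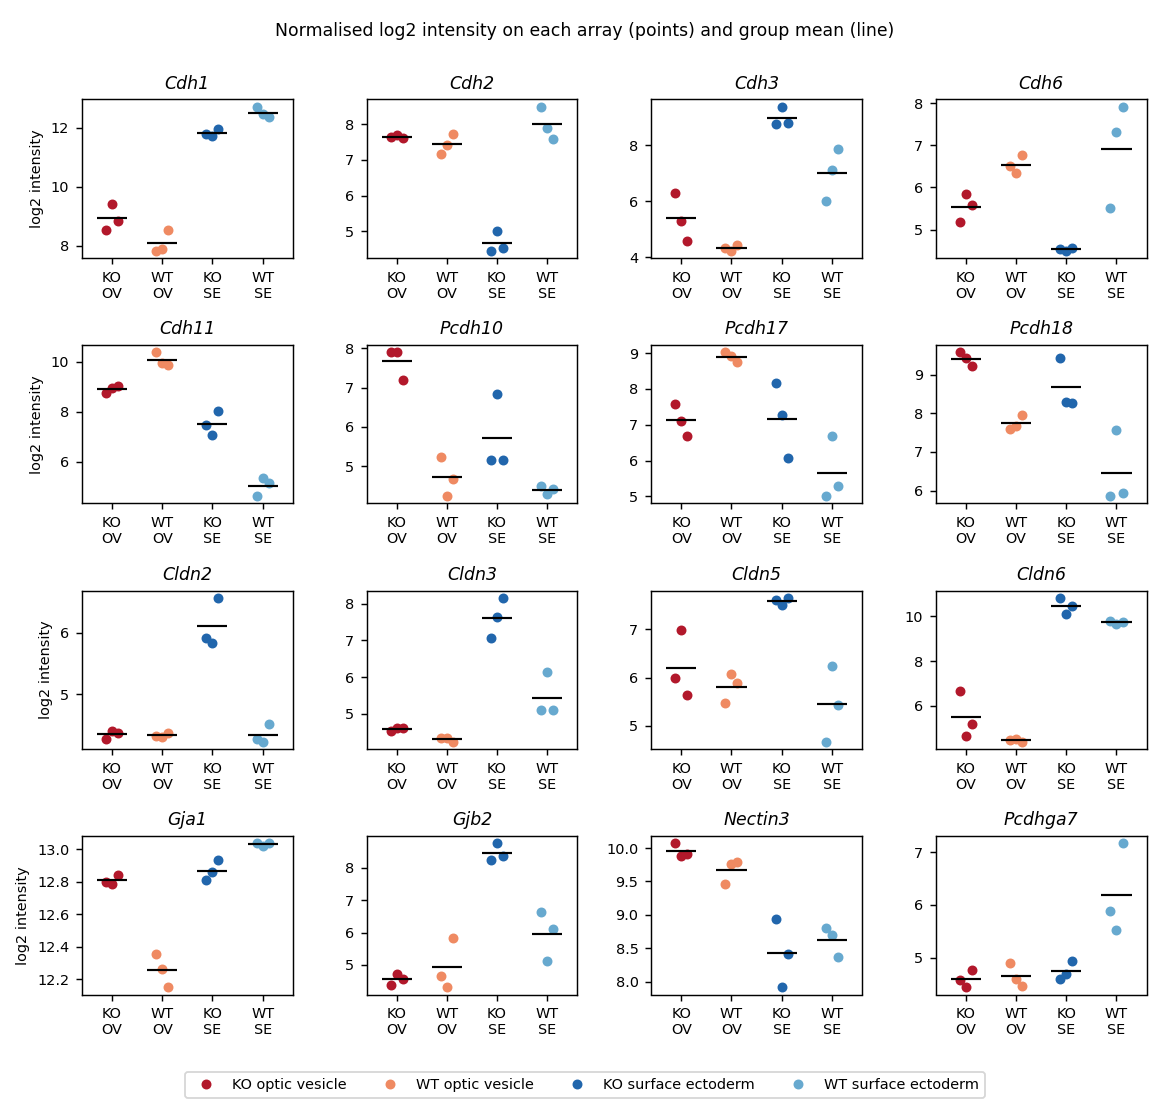
Normalised log2 intensity of 16 genes on each array (points, slightly offset) with the group mean (line), for KO and WT optic vesicle (OV) and KO and WT surface ectoderm (SE); each panel has its own vertical scale, which does not start at 0. Cdh2 is low in KO ectoderm alone, Cldn2, Cldn3 and Gjb2 are highest in KO ectoderm, and Pcdh10 is highest in KO vesicle.

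By number, claudins had the most rises of any class. In KO ectoderm 3 of 14 were higher and none lower, where 2.55% of all genes were higher. Type I cadherins had 1 of 4 higher and 1 of 4 lower. Cldn2, a pore-forming claudin of leaky epithelia, gave 5.91, 5.83 and 6.57 in KO ectoderm, against 4.27, 4.23 and 4.52 in WT ectoderm, where it was not detected. It was at least 2.55-fold higher in KO (adjusted p = 0.000258). These 3 arrays are the only ones on which it was detected, so it entered the set through the group in which it is high. The count of 3 rises includes it. Cldn3, a sealing claudin, gave 7.06, 7.64 and 8.17 in KO and 5.10, 6.14 and 5.09 in WT ectoderm, a 4.53-fold difference (log2 2.18, SE 0.37, adjusted p = 0.00268), and was detected on no vesicle array.

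Cldn5, the main claudin of endothelium, gave 7.61, 7.50 and 7.65 in KO ectoderm, against 4.67, 6.24 and 5.43 in WT ectoderm. KO was 4.42-fold higher (log2 2.14, SE 0.46, adjusted p = 0.014), and without WT replicate 1 the difference was 1.76 and no longer passed (adjusted p = 0.0624). In the vesicle Cldn5 gave 6.21 ± 0.69 in KO and 5.81 ± 0.31 in WT, which overlap. The remaining 11 claudins did not pass between genotypes in the ectoderm, with differences from -1.47 (Cldn11) to 0.97 (Cldn8), and none of the 14 passed in the vesicle. The brightest of those that passed nowhere was Cldn12, at 9.20 ± 0.10 in KO and 9.07 ± 0.28 in WT ectoderm, followed by Cldn23, Cldn9 and Cldn10. Cldn4, next to Cldn3 in the gene order, gave 4.83 ± 0.16 in KO and 4.80 ± 0.23 in WT ectoderm.

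Several markers of other cells moved with the ectoderm results. The summed linear intensity of 6 endothelial markers ran from 439 to 492.2 in KO ectoderm and from 141.3 to 187.3 in WT ectoderm, and 5 of the 6 were detected on no WT array. Of these markers Pecam1, Emcn and Sox17 were higher in KO (3 of 6). The sum of 9 mesenchyme markers ran from 3788 to 3828 in KO and from 1941 to 2074 in WT ectoderm; 5 were higher in KO (Col3a1, Twist1, Alx4, Prrx1, Foxc2) and 1 lower (Pdgfra). The sum of 7 pigment epithelium markers ran from 999.6 to 1524 in KO and from 563.6 to 1117 in WT ectoderm, with 4 higher in KO. The sum of 5 optic vesicle neural markers ran from 1285 to 1967 in KO and from 2369 to 2976 in WT ectoderm, with 1 lower in KO (Sfrp2). The sum of 6 erythroid markers lay between 11170 and 12370 in KO and between 9858 and 10550 in WT ectoderm. Among 12 surface ectoderm and lens markers, Trp63, Perp, Tfap2b and Wnt6 were higher and the lens genes Prox1, Foxe3 and Cryab lower in KO. The part of these cells in the values of Cdh2, Cldn5, Cdh11, Pcdh18 or any other gene here was not tested. In the vesicle, 5 of 7 pigment epithelium markers were higher in KO, their sum running from 5059 to 5319 in KO and from 1195 to 1339 in WT; their part in the Gja1 and Pcdh10 values was not tested either. Neural marker sums ran from 2071 to 2463 in KO and from 3703 to 4436 in WT vesicle, with 2 of 5 lower in KO. Mesenchyme sums ran from 866.8 to 1059 in KO and from 303.6 to 422.2 in WT vesicle, with only 2 of 9 markers higher in KO. Erythroid sums ran from 4785 to 5090 in KO and from 2042 to 2150 in WT vesicle, with 4 of 6 higher in KO.

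None of the Tjp, Ocln and F11r genes, which build the tight junction plaque and its membrane partners, passed between genotypes. Tjp1 (ZO protein of the plaque) was bright in every group, at 9.76 ± 0.20 in KO and 10.09 ± 0.19 in WT vesicle and at 10.30 ± 0.13 in KO and 10.18 ± 0.23 in WT ectoderm. F11r (JAM-A) gave 6.36, 7.55 and 6.53 in KO ectoderm and 5.86, 6.09 and 6.25 in WT ectoderm (difference 0.75, adjusted p = 0.253). Ocln and Tjp3 averaged from 4.37 (Ocln in KO vesicle) to 4.98 (Ocln in KO ectoderm) and did not pass. The 3 nectins were detected on all arrays and did not pass between genotypes: differences ran from 0.16 (Nectin2) to 0.54 (Nectin1) in the vesicle and from -0.58 (Nectin2) to -0.20 (Nectin3) in the ectoderm.

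Connexins gave 1 call in each tissue out of 6 genes, where 1.84% of all genes passed in the vesicle and 4.95% in the ectoderm. Gja1, the most widely used connexin of embryonic tissue, gave 12.80, 12.79 and 12.84 in KO vesicle, against 12.35, 12.26 and 12.15 in WT vesicle. The difference of 0.55 (SE 0.06) is only 1.47-fold, but arrays of a group differed little and adjusted p was 0.000103. In the ectoderm the values were 12.81, 12.86 and 12.93 in KO, against 13.04, 13.02 and 13.04 in WT, lower in KO on every array but not past the threshold (difference -0.16, adjusted p = 0.152). KO vesicle therefore reached the range of KO ectoderm.

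Gjb2, a connexin of surface epithelia and of the inner ear, gave 8.23, 8.76 and 8.36 in KO ectoderm, against 6.64, 5.13 and 6.13 in WT ectoderm. KO was 5.61-fold higher (log2 2.49, SE 0.47, adjusted p = 0.00571), with every KO array above every WT array. In the vesicle it was detected on 1 of 6 arrays. Its promoter is the one printed above with 4 kinds of motif match. Gjb6, its neighbour in the gene order, gave 5.27 ± 0.99 in KO and 4.93 ± 1.05 in WT ectoderm, with arrays of a group far apart. Gjc1 was bright and close in all groups, at 10.07 ± 0.05 in KO and 10.31 ± 0.11 in WT vesicle and at 9.93 ± 0.13 in KO and 10.12 ± 0.07 in WT ectoderm. Gja10 and Gjb1 averaged between 4.45 (Gja10 in KO vesicle) and 5.33 (Gja10 in WT vesicle) and did not pass.

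The arrays lay on 2 slides that each hold all 4 groups. Within each tissue KO and WT arrays are balanced on each slide. Slide 1 holds more ectoderm than vesicle arrays and slide 2 the reverse, so tissue is partly tied to slide. With the slide as a block, 12 of 12 genotype calls passed, and within each slide all 12 kept their sign. Among the tissue and interaction calls, those of the interaction for Gjb2 (adjusted p = 0.0601) and Pcdh17 (0.0571) were lost with this block. In the ectoderm the differences on slide 1 and slide 2 were -3.70 and -2.59 for Cdh2, 2.21 and 1.52 for Cdh3, 2.75 and 1.94 for Cdh11, -1.87 and -3.41 for Cdh6, and 2.15 and 2.37 for Pcdh18. They were 1.99 and 1.32 for Cldn2, 2.00 and 2.55 for Cldn3, 2.18 and 2.08 for Cldn5, 2.41 and 2.64 for Gjb2 and -0.94 and -2.47 for Pcdhga7. In the vesicle they were 0.43 and 0.61 for Gja1 and 2.66 and 3.10 for Pcdh10. A slide holds as little as 1 array of a group, so these are values rather than tests.

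**Figure D3:**
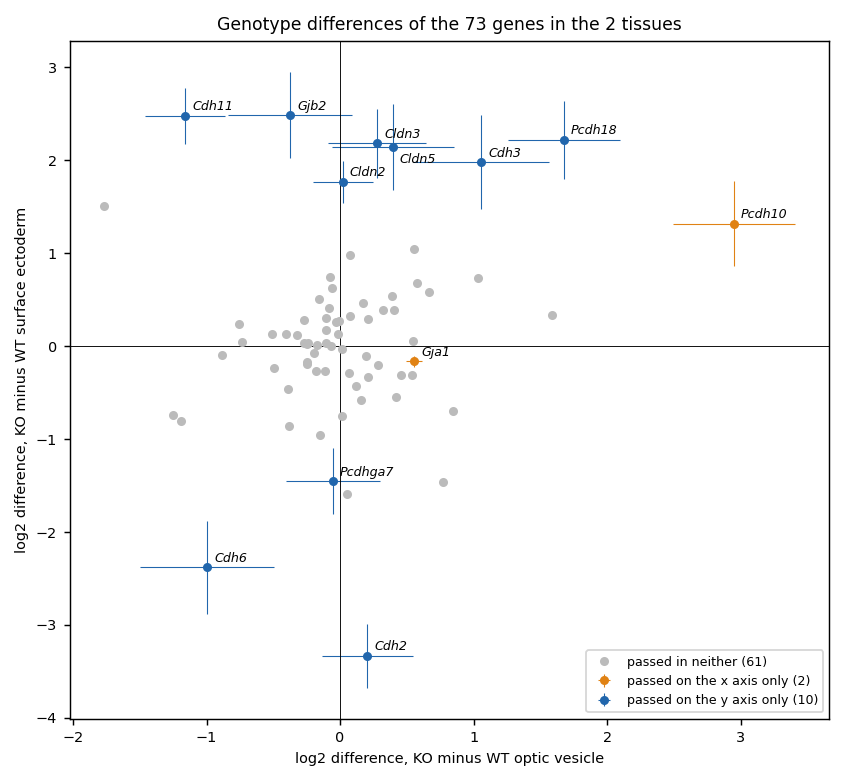
KO minus WT log2 difference of each of the 73 genes in optic vesicle (horizontal) and in surface ectoderm (vertical), with SE bars on the genes that passed in a tissue. The 10 genes that passed in the ectoderm (blue) lie near 0 or to either side on the horizontal axis, and Gja1 and Pcdh10 (orange) passed in the vesicle.

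Whether the genotype difference itself differed between the tissues was tested with the interaction term (KO minus WT in vesicle, minus KO minus WT in ectoderm). It passed for 7 of 73 genes, 3 positive and 4 negative, where 1.42% of all genes passed, 0.813% positive and 0.604% negative. Cdh2 (3.54) and Cdh11 (-3.64) had the largest values, with adjusted p of 0.00154 and 0.000513. Cdh2 differed by 0.20 in the vesicle and -3.33 in the ectoderm, and Cdh11 by -1.16 and 2.48. Gja1 (0.72, adjusted p = 0.000522) and Cldn2 (-1.75, adjusted p = 0.012) also passed; Cldn2 was detected in KO ectoderm alone and entered the set through that group, so its test is not independent of the filter. Other kept probes gave smaller interaction values that did not pass: -1.73 and -1.63 for Cdh11 (adjusted p of 0.3 and 0.338 in the fit over all probes), 0.44 for Cdh2, -0.41 for Cldn2, 0.02 for Cdh1 and -1.16 for Pcdh17. For Cdh1 the differences of 0.85 in the vesicle and -0.70 in the ectoderm passed the test against each other (1.54, adjusted p = 0.0189), though neither passed alone; the call was lost without WT vesicle replicate 1 (0.0555) or 2 (0.0571), without WT ectoderm replicate 1 (0.0541) and with the replicate block (0.0576). The replicate block also took Cldn2 to 0.0501. Gjb2 (-2.86, adjusted p = 0.0462) and Pcdh17 (-3.27, adjusted p = 0.041) were the least firm: they lost the call in 11 and 10 of the 12 fits that left out 1 array, with adjusted p of up to 0.113 (without WT vesicle replicate 3) for Gjb2 and up to 0.11 (without WT vesicle replicate 1) for Pcdh17. Pcdh10, Pcdh18, Cdh3, Cdh6, Cldn3, Cldn5 and Pcdhga7 passed in 1 tissue, and no difference between tissues was shown for them.

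Vesicle was then set against ectoderm within each genotype. These comparisons share arrays with the genotype comparisons, so a high or low group counts in both. In WT embryos 11 of 73 genes passed, 3 higher and 8 lower in the vesicle, where 8.33% of all genes passed, 4.03% higher and 4.29% lower. In KO embryos 14 passed, 4 higher and 10 lower in the vesicle, where 7.64% of all genes did, 3.5% higher and 4.14% lower. The median difference of the 73 genes was -0.38 in WT and -0.31 in KO, against 0.05 and 0.01 over all genes. Both genotypes shared 7 of these genes, with the same sign: Cdh11 and Nectin3 were higher in the vesicle, and Cdh1, Cdh3, Cldn6, Cldn7 and F11r were higher in the ectoderm. F11r, and among the KO calls also Cldn2, Cldn3, Cldn8 and Pcdhga8, were detected on no vesicle array. They entered the set through the ectoderm arrays, where they are high. Their calls, and the counts that hold them, are not independent of the filter.

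Among the ectoderm genes Cldn6, a claudin of early embryonic epithelia, had the largest difference. In KO it gave 6.66, 4.67 and 5.19 in vesicle, against 10.83, 10.12 and 10.46 in ectoderm, a 31.2-fold difference. In WT it gave 4.49, 4.54 and 4.40 in vesicle, not detected, against 9.80, 9.66 and 9.75 in ectoderm, at least 31.5-fold lower in the vesicle (adjusted p = 1.11e-06). Cdh1 was 7.37-fold lower in vesicle than in ectoderm in KO and 21.5-fold lower in WT (adjusted p = 9.18e-09 in WT), and the interaction given above for Cdh1 is the test of that difference. The dimmer Cdh1 probe was 1.70-fold lower in KO and 1.73-fold lower in WT, and neither difference passed. Cldn7 gave 5.36 ± 0.10 in vesicle and 8.23 ± 0.77 in ectoderm of KO embryos, and 5.86 ± 0.09 and 8.47 ± 0.19 in vesicle and ectoderm of WT embryos. F11r was not detected in the vesicle and was at least 4.24-fold lower there than in ectoderm in KO and at least 2.48-fold lower in WT. For Cdh3 the vesicle was 12.0-fold lower in KO and at least 4.72-fold lower in WT. Its other kept probes all passed in KO, with log2 differences of -2.88, -2.31 and -0.83. In WT they gave -2.07, which passed, and -1.36 and -0.06, which did not.

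Of the vesicle genes, Nectin3, known in the mouse for holding the pigmented and unpigmented layers of the ciliary body together, gave 10.07, 9.88 and 9.91 in KO vesicle and 8.94, 7.91 and 8.41 in KO ectoderm (2.90-fold, adjusted p = 0.000601). In WT it gave 9.46, 9.76 and 9.80 in vesicle and 8.81, 8.70 and 8.36 in ectoderm (2.07-fold, adjusted p = 0.00979). The other kept Nectin3 probes passed in KO (log2 differences of 1.81 and 1.88) but not in WT (1.44 and 0.81). Cdh11 was 2.64-fold higher in vesicle than in ectoderm in KO and 32.8-fold higher in WT (log2 differences of 1.40 and 5.04). The other kept Cdh11 probes gave 1.63 and 1.79 in KO and 3.36 and 3.42 in WT, so the WT size depends on the probe.

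Calls made in 1 genotype only follow the group values given above. A call in 1 genotype does not by itself show a difference between genotypes, for which the interaction is the test. Among the genes of this paragraph the interaction passed for Pcdh17, Gja1, Cdh2, Gjb2 and Cldn2, with the limits given above. It did not pass for Cldn11, Pcdhga7, Pcdh10, Cldn3, Cldn8 or Pcdhga8, with adjusted p from 0.0983 (Cldn3) to 0.514 (Cldn8). In WT the vesicle passed above the ectoderm for Pcdh17 (3.24) and below it for Cldn11 (-3.11), Gja1 (-0.78) and Pcdhga7 (-1.54). Cldn11, a claudin known from myelin and testis, gave 4.88, 4.74 and 4.60 in WT vesicle, against 6.85, 7.86 and 8.85 in WT ectoderm. The Pcdhga7 call was lost without WT vesicle replicate 2 (adjusted p = 0.052) or 3 (0.0587). In KO the vesicle passed above the ectoderm for Cdh2 (2.99) and Pcdh10 (1.95). It was below for Gjb2 (at least 13.2-fold), Cldn3 (at least 7.42-fold), Cldn8 (at least 2.84-fold), Cldn2 (at least 2.59-fold) and Pcdhga8 (at least 1.49-fold). Other kept probes of Cdh2 and Cldn2 gave log2 differences of 0.14 and -0.41 between the KO tissues, which did not pass. Cldn8, a claudin of tight renal epithelium, gave 4.34, 4.46 and 4.33 in KO vesicle, against 6.90, 5.81 and 6.01 in KO ectoderm. Pcdh10 lost its call without KO vesicle replicate 1 (0.0559) or 2 (0.0555) or KO ectoderm replicate 1 (0.0684) or 3 (0.068). Pcdhga8 lost it in 5 of the 6 fits that left out 1 KO array: without vesicle replicate 1 (0.131), 2 (0.105) or 3 (0.07) and without ectoderm replicate 2 (0.117) or 3 (0.101).

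**Figure D4:**
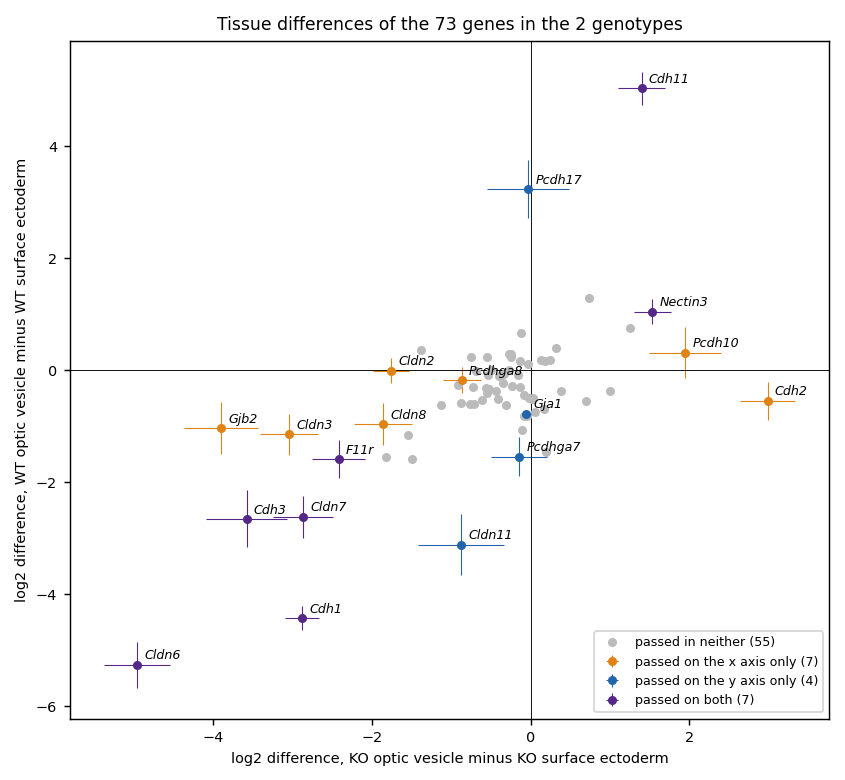
Optic vesicle minus surface ectoderm log2 difference of the 73 genes in KO (horizontal) and WT embryos (vertical), with SE bars on the genes that passed. Cdh1, Cdh3, Cldn6, Cldn7 and F11r are negative and Cdh11 and Nectin3 positive on both axes (purple), while Cdh2, Cldn2, Cldn3 and Gjb2 (orange) are far from 0 in KO and nearer to it in WT.

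Proteins that work with cadherins and claudins were read from 5 lists. Of 9 measured catenins and adherens junction adaptors none passed between genotypes; Ctnnb1 (beta-catenin) gave 12.76 ± 0.13 in KO and 12.79 ± 0.03 in WT ectoderm. Ctnnd1 (p120-catenin, which keeps cadherins at the membrane) was lower in vesicle than in ectoderm of KO embryos (-0.96). Of 7 desmosome genes 2 were higher in KO ectoderm: Ppl, which links desmosomes to keratin, at 8.03 ± 0.21 in KO and 6.15 ± 0.91 in WT (adjusted p = 0.0223), and Pkp4, an armadillo protein of junctions, at 10.51 ± 0.09 in KO and 9.76 ± 0.29 in WT (adjusted p = 0.00494). Of the 7, 5 were lower in vesicle than in ectoderm of KO embryos, and 3 were lower and 1 higher in WT embryos. Dsg2, a desmosomal cadherin, differed by -2.90 in KO and -3.11 in WT.

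Of 19 tight junction adaptors and polarity genes, Cgnl1 (paracingulin) was the 1 that passed between genotypes, at 9.46 ± 0.19 in KO and 8.37 ± 0.42 in WT vesicle (adjusted p = 0.0268). Lower in vesicle than in ectoderm were Marveld2 (tricellulin), Patj and Llgl2 in both genotypes, and Cgnl1 in WT. Of 11 junctional immunoglobulin family and related genes, Cadm1, an adhesion molecule of neurons and epithelia, was lower in KO ectoderm, at 8.86 ± 0.05 against 9.93 ± 0.15 in WT (adjusted p = 0.000467). Ildr2 was higher in vesicle than in ectoderm, by 3.91 in KO and 4.76 in WT, while Epcam and Lsr were lower in both.

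Of 13 measured regulators of cadherin genes, Zeb2, a repressor known to act on Cdh1, was lower in KO in both tissues. It gave 8.40 ± 0.42 in KO and 9.84 ± 0.30 in WT vesicle (adjusted p = 0.00682) and 7.28 ± 0.20 in KO and 9.61 ± 0.33 in WT ectoderm (adjusted p = 6.42e-05). Twist1 and Snai1, repressors of the same gene that are also active in mesenchyme, were higher in KO ectoderm, by 2.80 and 0.92. The Snai1 probe averaged 4.71 in WT ectoderm, near background, so the size of its rise is not exact. Twist1 is also one of the mesenchyme markers counted above. Grhl2, Ovol2 and Esrp1, known to maintain epithelial junctions, did not pass between genotypes and were lower in vesicle than in ectoderm in KO and WT embryos.

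More than 1 kept probe was available for 19 of the 73 genes. For called results that could be read from another kept probe, 32 such readings were tested, 11 passed and 0 had the opposite sign. The second Cdh2 probe lay near background and gave -0.23 in the ectoderm. The 2 other Cdh11 probes gave 0.62 and 0.81 there and did not pass, so the size of that rise depends on the probe. Of the 3 other Cdh3 probes 1 passed (0.74) and the others gave 0.78 and 1.04, and the other Cldn2 probe gave 0.71. For Cdh1 the dimmer probe gave 0.02 in KO minus WT ectoderm, and for Pcdh17 it gave -0.25 there and -1.41 in the vesicle. Pcdh7 had a second probe that passed in the ectoderm (-1.35) while the used one (-0.74) did not. Other probes of Cdh4, Nectin1, Nectin2, Pcdh1, Pcdh9, Pcdha6 and Pcdhgc3 differed in sign from the used probe in at least 1 comparison, with no probe of these genes passing in it.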

How the data were processed

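RNA from 12 samples was hybridised to 1-colour Illumina bead arrays. Per the file headers and the submitters' processing notes, GenomeStudio (version not stated) gave for each probe an average signal, deposited as a linear intensity without between-array normalization as far as the values show, a detection p-value deposited per probe and array, and a deposited bead number, an other quantity used only to describe the arrays. Background correction and quantile normalization used neqc of limma 3.58.1 in R 4.3.3, with controls inferred from the detection p-values and an offset of 16, giving log2 values. Of 45281 probes, 24978 had a detection p below 0.05 on at least 3 arrays. A probe was named where the platform annotation gave 1 symbol (34885 probes; 18 had several and 10378 none), updated through Entrez IDs (34807 matched the RefSeq table), and each of the 11924 genes was read from its brightest probe.

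All 12 arrays entered 1 limma fit with a mean per group and an intensity trend. Tests were two-sided with Benjamini-Hochberg adjustment over all 11924 genes in each of 5 comparisons, and the method was tested on simulated data. Depth has no counterpart on these arrays, and the 3 arrays per group limit the precision. Same-numbered arrays of different groups did not deviate together: correlations of deviations from the group means ran from -0.0303 to 0.0218 within a genotype and from -0.0366 to 0.008 within a tissue. The arrays lie on 2 slides of 6. Every member that passed in a comparison was named, as were up to 4 bright members per role that passed nowhere, members whose probes disagree, and list genes that passed between genotypes (at most 5 per list). The members and lists were chosen with earlier results of these data known. Alternatives were no background correction, the authors' processed values, cyclic loess, no detection filter or a stricter one, slide or replicate number as a block, only the 6 arrays compared, array weights, each slide alone and leaving out each array. The authors' processed values, deposited as a table of the whole series, served only as that alternative.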

Additional observations from a re-analysis of the deposited data

Results flagged for a closer look

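The difference between genotypes differed between the tissues, by the interaction term of the limma fit, for 7 genes. Each value is KO minus WT in the optic vesicle minus the same in the ectoderm, on the log2 scale. For Cdh2 it was 3.54 (SE 0.49, adjusted p = 0.00154), from 0.20 in the vesicle and -3.33 in the ectoderm. The other kept Cdh2 probe, near background, gave 0.44 and did not pass. Cdh11 gave -3.64 (SE 0.42, adjusted p = 0.000513), from -1.16 and 2.48 in vesicle and ectoderm. The other 2 kept Cdh11 probes gave -1.73 and -1.63 and did not pass, so the call and its size depend on the probe. Cdh1 gave 1.54 (adjusted p = 0.0189), from 0.85 and -0.70. Its dimmer probe gave 0.02 and did not pass. The Cdh1 call was lost in 3 of the 12 fits that left out 1 array and with the replicate block. Gja1 gave 0.72 (adjusted p = 0.000522), from 0.55 and -0.16, and Cldn2 gave -1.75 (adjusted p = 0.012), from 0.02 and 1.77. Cldn2 was detected in KO ectoderm alone and passed the detection filter through that group, and its other kept probe gave -0.41. Pcdh17 gave -3.27 (adjusted p = 0.041), from -1.77 and 1.50, and its other kept probe gave -1.16 and did not pass. Gjb2 gave -2.86 (adjusted p = 0.0462), from -0.38 and 2.49. These 2 calls were the least firm. Of the 12 fits that left out 1 array, 10 lost the call for Pcdh17 and 11 for Gjb2. Both were also lost with the slide as a block. On slide 1 and slide 2 the interaction was 4.22 and 2.64 for Cdh2, 2.31 and 1.13 for Cdh1, 0.59 and 0.79 for Gja1, -1.90 and -1.34 for Cldn2, -2.35 and -3.23 for Gjb2 and -3.18 and -3.66 for Pcdh17. Within slide 2 Cdh11 gave -2.96, and it was negative within slide 1 too.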

How the results depend on the processing

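Over 44 called values, none changed its sign under the alternatives run, other kept probes included; values that had not passed did change sign with the probe, such as Pcdh17 in KO against WT ectoderm (1.50 and -0.25). KO against WT vesicle gave 2 calls, which became 5 without background correction, 4 with cyclic loess, 5 with the 6 arrays compared alone, 6 with array weights and 0 within slide 1. KO against WT ectoderm gave 10 calls, and 5 with the 6 arrays alone (4 of them among the 10, Cdh1 added), 0 within slide 1 and 4 within slide 2 (3 among the 10, Pcdhb7 added). It gave 8 without the detection filter and 8 with array weights, Cdh3 and Pcdhga7 being lost in both; over all 44 called values these settings lost 5 and 3, and the slide as a block lost 2 (the interactions of Gjb2 and Pcdh17). Vesicle against ectoderm gave 11 calls in WT and 14 in KO, and 3 and 2 within slide 1. The interaction gave 7 calls, and 0 within slide 1 and 0 within slide 2. A slide has as little as 1 array of a group. With the replicate number as a block, the calls were 2 (vesicle) and 9 (ectoderm) between genotypes, 12 (WT) and 13 (KO) between tissues and 4 for the interaction. The numbers showed no sign of pairing the arrays. Leaving out each array in turn gave 2 to 3 calls in the vesicle, 8 to 11 in the ectoderm, 10 to 13 between WT tissues, 12 to 15 between KO tissues and 4 to 7 for the interaction (4 without WT vesicle replicate 1 or 2). With the 6 ectoderm arrays alone, Cdh6 (adjusted p = 0.0862), Cldn3 (0.069), Cldn5 (0.0701) and Pcdh18 (0.0725) also lost the call. The cause of these changes was not tested. Only 15 of the 73 genes were detected on all 12 arrays, which limits what can be measured for the others.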
